A study of Mus musculus with 5 samples.

Results

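Perineurial cells form the flat, layered sheath that wraps each nerve fascicle. In the tibialis anterior muscle of aged mice, 143 of 50460 retained droplet barcodes met a rule for their transcript profile. A barcode counted as perineurial when it held at least 2 UMIs (unique molecular identifiers, 1 per captured RNA molecule) of Sfrp5 and had at least 2 of Slc2a1, Cldn1, Itgb4, Perp and Tenm2 detected, with at most 1 UMI in total of Cdh5, Ptprc, Sox10 and Krt14. The last 4 genes mark endothelial cells, leukocytes, Schwann cells and basal keratinocytes. A barcode was retained with 200 or more genes detected and no more than 10% of its UMIs from mitochondrial genes. The barcodes were thus chosen by the measured UMIs of these 10 genes, so their levels are described here and not tested.

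Muscles of 5 female C57BL/6 mice aged 26 months were profiled, with 1 library each. No transgene, deletion or drug is named for any of them. The frail group holds 2 mice with a frailty index of 0.18 or more, and the control group holds 3 equally old mice under that value. The series title concerns the stress cytokine GDF15, its receptor GFRAL and sarcopenia, which is muscle loss in old age. The labels describe the preparation once as whole cells and once as sorted nuclei.

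The perineurium is a barrier. Its cells are joined by tight junctions, lie on basement membrane, and take up glucose for the nerve through the transporter GLUT1, the product of Slc2a1. They resemble both fibroblasts and the arachnoid barrier cells of the meninges, and in development the sheath depends on desert hedgehog, a signal that Schwann cells secrete and the receptor PTCH1 reads. Sfrp5 encodes a secreted Wnt antagonist, Cldn1 a tight junction protein and Itgb4 an integrin of basement membrane contacts.

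The libraries held 68170531 to 90942121 UMIs in 9791 to 13303 barcodes, of which 82.0% to 91.8% were retained. Frail 1 had the lowest retained share, since 17.2% of its barcodes exceeded the mitochondrial limit, against 7.49% to 11.2% elsewhere. Of 50205 retained barcode sequences, 253 occurred in more than 1 library. Of the perineurial barcodes, 2 had a sequence seen in another library and 0 shared it with another perineurial barcode. A doublet score ranked the retained barcodes, and the number marked was set beforehand at 0.4% per 1000 retained barcodes of each library. This marked 2089 barcodes, 1 of them perineurial, and none was removed for the main values. The number marked is thus an assumed rate and not a measured one.

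Frail 1 and 2 gave 55 and 25 perineurial barcodes, and control 1, 2 and 3 gave 7, 30 and 26. Values below keep this order. Their summed depth was 299498, 149384, 43018, 156293 and 192572 UMIs, so a lone UMI is worth 23.2 CPM (counts per 1e+06 UMIs of the same sum) in control 1. Control 1 therefore gives the coarsest value of every gene. The median perineurial barcode held 4150, 5651, 6068, 4618 and 5935 UMIs.

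Detection of the genes in the rule describes the barcodes and is no finding. Slc2a1 was detected in 84.6% of the 143, Itgb4 in 83.9%, Cldn1 in 81.1%, Tenm2 in 63.6% and Perp in 35.0%. Sfrp5 (ENSMUSG00000018822, chromosome 19, 42197971 to 42202252 on GRCm38) stood at 1927 and 2062 CPM in the frail libraries and at 907, 2182 and 1220 CPM in the controls. At the edge of the rule, 14 barcodes had exactly 2 Sfrp5 UMIs, and 50 others that met the remaining conditions had 1. Exactly 2 of the 5 sheath markers were detected in 39 members, 3 in 29, 4 in 42 and all 5 in 33, and 115 barcodes with at least 2 Sfrp5 UMIs had 1. The limit on the other cell types' genes removed 158 barcodes, while 61 members held the 1 UMI it allows.

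Most Sfrp5 UMIs lay outside the perineurial barcodes, which held 3.79% to 32.0% of the Sfrp5 UMIs of their library. A further 615 retained barcodes had at least 2 Sfrp5 UMIs and fewer than 2 sheath markers. In these, Sfrp5 stood at 847 CPM and Slc2a1 at 20.6 CPM.

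Most of the perineurial genes examined outside the rule were high in the gated barcodes. They were listed with earlier results of these data known, so they describe the barcodes and are no independent check of the label. For comparison, 447 Schwann, 13114 fibro-adipogenic and 16612 endothelial barcodes were gated on their own canonical markers. Lypd2, a surface protein of the Ly6 family, was detected in 51.7% of the 143 barcodes against 0.224% of Schwann, 2.49% of fibro-adipogenic and 0.349% of endothelial barcodes. Krt19, a keratin, was detected in 41.3%, against 0%, 2.42% and 0.265%. The median depth per library was 4112 to 4797 UMIs in the Schwann set, 7800.5 to 9151.5 in the fibro-adipogenic set and 3878 to 4931 in the endothelial set.

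Of 12 perineurial genes listed outside the rule, 11 could be tested against the 3 sets. With edgeR's quasi-likelihood test at an adjusted p under 0.05, 8 of the 11 were higher than in all 3 sets: Lypd2, Msln, Moxd1, Krt19, Mpzl2, Stxbp6, Prodh and Gjb2. Over all 14578 genes tested, 2.32% were. Ntng1, the neuronal adhesion protein netrin-G1, did not pass against Schwann cells (edgeR adjusted p = 0.0649), with 269 ± 150 CPM (SD, n = 5) beside 162 CPM there. Itga6, the integrin partner of Itgb4, did not pass against endothelial cells, with 684 ± 285 CPM beside 488 CPM. Tjp1, the junction scaffold ZO-1, was lower than in endothelial cells with TMM scaling, by a log2 difference of -0.42 (edgeR adjusted p = 0.0176), while without TMM factors the difference was -0.06 (edgeR adjusted p = 0.816).

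The 143 barcodes were not uniform. In 23 of them more than 0.5% of UMIs came from a list of 16 Schwann genes; the lowest of the 23 had 0.775%, and the next barcode below had 0.393%. They made up 5, 5, 1, 4 and 8 of the barcodes of frail 1, frail 2 and control 1 to 3. The limit of 0.5% was placed after the values were seen, and no test was made on it. Of the 23, 18 had exactly 2 sheath markers, and their summed Cldn1 level was 246 CPM against 612 CPM in the other 120.

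The 16 Schwann genes summed to 2788 and 6252 CPM in the frail perineurial sums and to 2952, 7863 and 7036 CPM in the controls, against 10421 to 16065 CPM in the Schwann set. Sox10, which the rule limits, was seen in 9.09% of the perineurial barcodes. Whether such barcodes hold RNA of both cell types in 1 droplet was not tested.

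**Figure D1:**
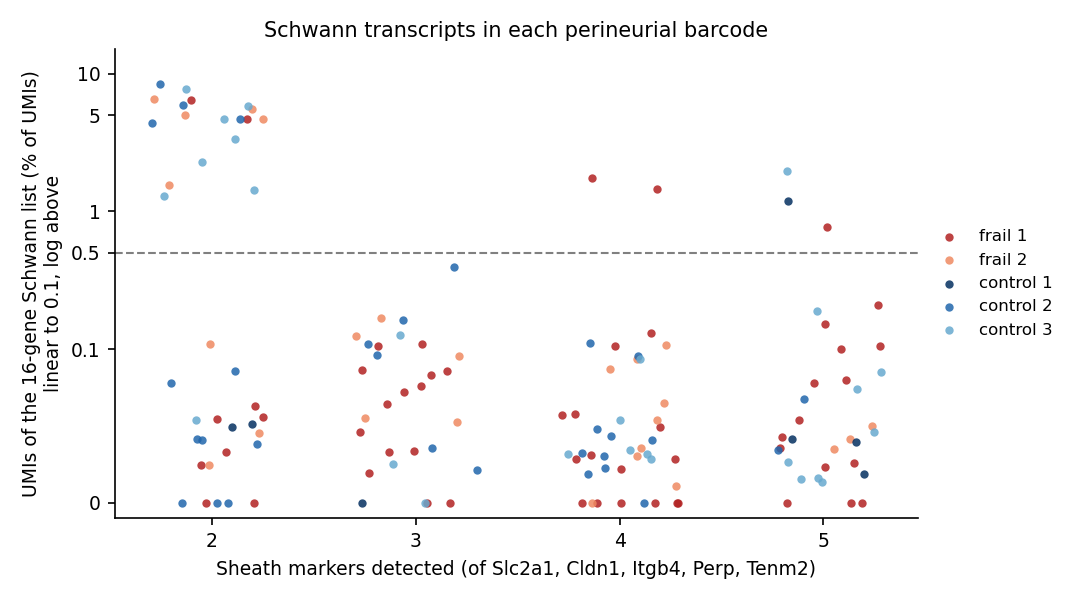
Each point is 1 of the 143 perineurial barcodes, placed by the number of sheath markers detected (x axis, of 5) and the percent of its UMIs in the 16-gene Schwann list (y axis, linear to 0.1 and log above), and coloured by library. Of the 23 points above the dashed line at 0.5%, 18 have exactly 2 markers, and they come from all 5 libraries.

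Cdh5, which encodes VE-cadherin and which the rule limits, was also seen in sheath-like barcodes. The limit on Cdh5 alone removed 118 barcodes that met every other condition (36, 35, 20, 13 and 14 per library). Of genes outside the rule, those 118 had 413 CPM of Lypd2, 394 CPM of Krt19 and 199 CPM of Moxd1, against 315, 213 and 161 CPM in the 143. A wider set was formed after these values were seen, with Cdh5 allowed and Schwann-rich barcodes left out. It holds 229 barcodes, and some of its values stand beside those of the 143 below. In control 1, Lypd2 stood at 23.2 CPM in the 7 members and at 325 CPM in the wider set, and Sfrp5 at 907 and 2273 CPM.

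In the wider set, Cdh5 stood at 21.0% ± 4.72 (SD, n = 5 libraries) of its level in the endothelial cells of the same library. The other 9 endothelial genes examined stood at 6.18% ± 4.49 (Cldn5) to 11.5% ± 5.06 (Emcn). In Schwann barcodes gated with Cdh5 allowed, Cdh5 stood at 7.62% ± 3.31 and the others at 6.81% to 10.5%. For Cdh5, every library of the wider set lay above the highest Schwann library, which was at 12.04%.

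The same held in barcodes free of the other endothelial transcripts. Among barcodes with 0 UMIs of those 9 genes, Cdh5 was detected in 40 of 78 of the wider set, or 51.3% (exact Clopper-Pearson 95% interval 39.7% to 62.8%). The share was 6.31% (3.40% to 10.5%) in Schwann and 10.6% (9.69% to 11.5%) in fibro-adipogenic barcodes. The median depth of these barcodes per library was 4218 to 5761 UMIs in the wider set, 3312 to 4263.5 in Schwann and 6799 to 8389 in fibro-adipogenic barcodes. Intervals cover counting error only, and the barcodes were gated on expression, so the shares carry no test.

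**Figure D2:**
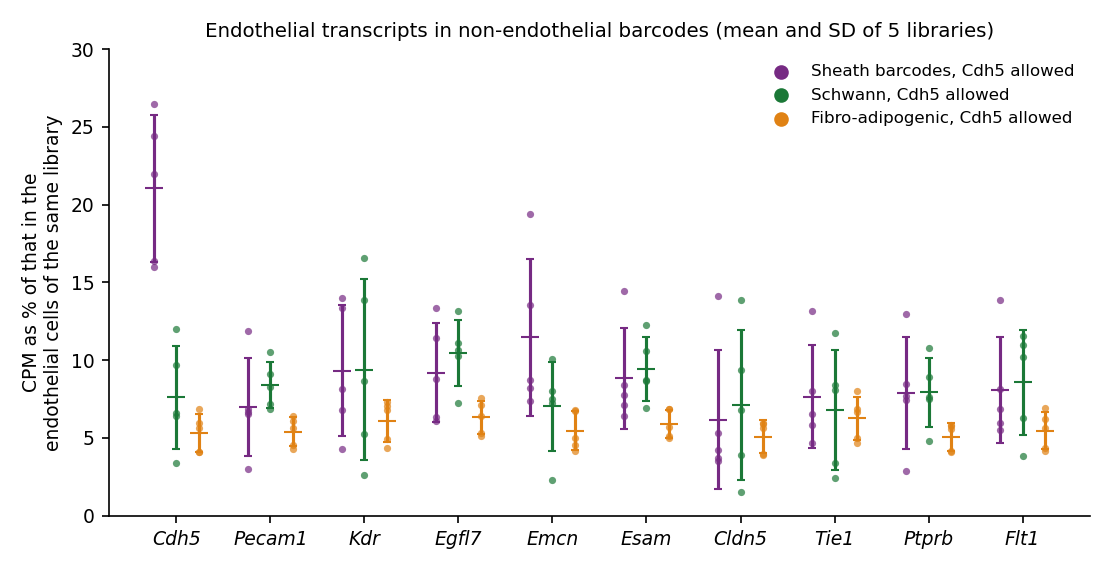
CPM of 10 endothelial genes as a percent of their CPM in the endothelial cells of the same library (y axis), in the 229 sheath barcodes with Cdh5 allowed and in Schwann and fibro-adipogenic barcodes gated with Cdh5 allowed. Points are libraries, and bars give the mean and SD of 5 libraries. Cdh5 in the sheath barcodes reaches 26.5% and lies above every library of the other 2 sets.

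Ptprc, which the rule limits, had 0 UMIs in the perineurial barcodes. A list of 12 immune genes, Ptprc included, summed to 104 to 279 CPM. A list of 7 keratinocyte genes was at 0 in frail 1 and control 1, and at 6.69, 12.8 and 151 CPM in frail 2, control 2 and control 3. Fibroblast transcripts were abundant. A list of 13 fibro-adipogenic genes summed to 19776 to 29195 CPM, Dcn, a matrix proteoglycan, was detected in 140 of the 143 barcodes, and 25 had at least 2 UMIs of Pdgfra.

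Perineurial sums were compared with the Schwann, fibro-adipogenic and endothelial sums of the same libraries, for genes that no gate used. Across the 3 contrasts, 338 genes were higher in perineurial cells than in all 3 sets. The count of genes lower than in all 3 depended on the scaling: it was 309 (2.12%) with edgeR's TMM factors, 93 without them and 137 with DESeq2, while the higher count was 338, 495 and 435. The TMM factors moved the median of all genes by 0.03, 0.36 and 0.34 on the log2 scale against Schwann, fibro-adipogenic and endothelial cells. Of the genes called with TMM factors, 334 higher and 83 lower were called in all 3 fits. The sets were gated on expression, so these tests describe how the gated barcodes differ and are not independent of that choice.

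The 24 genes with the largest folds, ranked by the smallest of each gene's 3 folds and with at least 50 CPM, held channels, receptors, transporters and signals. Genes were named only if they were higher in 5 of 5 libraries than in all 3 other sets of the same library, so that order is a condition of the choice. In the Schwann set 8 of them had 0 UMIs and 11 had 1 to 3, so for these a Schwann fold is given at most as a bound, for 0 UMIs, from 3 UMIs over that set (1.31 CPM).

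Hcn4, a pacemaker cation channel (ENSMUSG00000032338, chromosome 9, 58823412 to 58863175), stood at 354 and 482 CPM in the frail and 628, 250 and 239 CPM in the control perineurial sums. Its mean of 390 ± 165 CPM was 175 times that of the fibro-adipogenic and 822 times that of the endothelial set. Kcnj13, the potassium channel Kir7.1 of choroid plexus and retinal pigment epithelium, stood at 70.1, 80.3, 23.2, 38.4 and 83.1 CPM, at least 51.0-fold above the Schwann set. Adora1, the adenosine A1 receptor (ENSMUSG00000042429, chromosome 1, 134199223 to 134235431), stood at 56.8, 60.2, 93.0, 6.40 and 36.4 CPM, at least 34.6-fold above the Schwann set. All 3 genes were seen in every library, with a wide range between libraries. The Kcnj13 value in control 1 and the Adora1 value in control 2 are 1 UMI each. The adjusted p of edgeR's test was at most 4.09e-07 for Adora1 over its 3 contrasts.

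Promoters were searched for short motifs, and Hcn4 and Adora1 are shown because they are among the 3 leading genes and have an entry in RefSeq's GRCm38.p6 promoter table. The window is the 250 bases before the start site. Capitals mark GGGCGG, the letters bound by KLF and SP factors, on either strand (CCGCCC). The Hcn4 window is chr9:58822699-58822948 on the plus strand with 2 matches, and the Adora1 window is chr1:134235458-134235707 on the minus strand with 3.
Hcn4: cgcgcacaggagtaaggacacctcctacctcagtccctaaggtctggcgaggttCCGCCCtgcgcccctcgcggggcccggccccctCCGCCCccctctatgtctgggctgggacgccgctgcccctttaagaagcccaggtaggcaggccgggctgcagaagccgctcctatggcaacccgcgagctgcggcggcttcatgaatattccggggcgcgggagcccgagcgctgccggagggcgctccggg
Adora1: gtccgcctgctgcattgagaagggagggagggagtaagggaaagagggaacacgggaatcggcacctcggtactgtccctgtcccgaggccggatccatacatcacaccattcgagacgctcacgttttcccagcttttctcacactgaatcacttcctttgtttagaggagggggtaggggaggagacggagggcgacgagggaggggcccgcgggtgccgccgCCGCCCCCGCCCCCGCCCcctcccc
Of the 24 genes, 14 had an entry, and 9 of the 14 held GGGCGG, against 35.4% of 27025 genes with an entry. The GLI letters GACCACCCA were in 0 of the 14 (0.255% of all), the TCF/LEF letters CTTTGAT in 1, Stra6 (3.72%), the AP-1 letters TGANTCA in 1, Adora1 (7.82%), and the TEAD letters CATTCCA in 0 (4.26%). Both strands were searched, and matches of different motifs may overlap. A match is a description of these letters, not a binding site or a cause.

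Transporters and enzymes of the 24 included Slc6a13, Stra6, Cdo1 and Moxd1. Slc6a13, a carrier of GABA and taurine, stood at 96.8, 80.3, 186, 38.4 and 109 CPM and was at least 69.2-fold above the Schwann set. Stra6, the retinol uptake receptor, reached 160 and 221 CPM in the frail libraries, against 139, 154 and 83.1 CPM in the controls, 89.6 times the fibro-adipogenic mean. Crabp2, which carries retinoic acid inside the cell, stood at 101 ± 68.3 CPM, 33.5 times the Schwann mean. Crabp2 varied more between libraries than Stra6, from 13.4 to 194 CPM. Cdo1, which oxidises cysteine on the way to taurine, stood at 98.3 ± 49.1 CPM, and Moxd1, a monooxygenase, at 180 ± 48.1 CPM.

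Junction and surface genes of the 24 were Krt19, Mpzl2, Cldn22, Gjb5, Lypd2 and Efnb3. Krt19 stood at 190, 261, 395, 166 and 208 CPM and was at least 163-fold above the Schwann set. Mpzl2, an adhesion protein of epithelia, stood at 216 ± 66.9 CPM, 80.4 times the fibro-adipogenic mean. The claudin gene Cldn22 stood at 113 ± 35.6 CPM, and the connexin gene Gjb5 at 50.4 ± 26.2 CPM. Efnb3, a membrane-bound ephrin, stood at 69.4 ± 30.4 CPM, 74.6 times the endothelial mean. These genes were low but not at 0 in fibro-adipogenic barcodes, where Krt19 stood at 4.74 CPM and Lypd2 at 6.77 CPM.

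Secreted and regulatory genes completed the 24. Rspo3, which amplifies Wnt signals, stood at 240, 576, 46.5, 397 and 156 CPM, at least 229-fold above the Schwann set, but was detected in only 28 barcodes. Wnt10a, a Wnt ligand, stood at 66.8, 73.6, 116, 83.2 and 57.1 CPM, 511 times the fibro-adipogenic mean. Tnfsf8, the CD30 ligand, stood at 108 ± 112 CPM and Egfl6, a secreted protein with EGF repeats, at 85.6 ± 30.4 CPM. The transcription factor Foxd1 had a mean of 60.7 CPM, the Ral exchange factor Ralgps2 at 337 ± 66.0 CPM, Cttnbp2, which binds cortactin, at 173 ± 66.6 CPM, Ctxn3, a small membrane protein, at 164 ± 55.9 CPM and the noncoding RNA Snhg11 at 150 ± 82.5 CPM. Exons of Adora1, Cldn22 and Kcnj13 overlap a protein-coding gene on the opposite strand, and whether counting used strand is not given in the sources used here, so reads of such partners cannot be told apart.

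**Figure D3:**
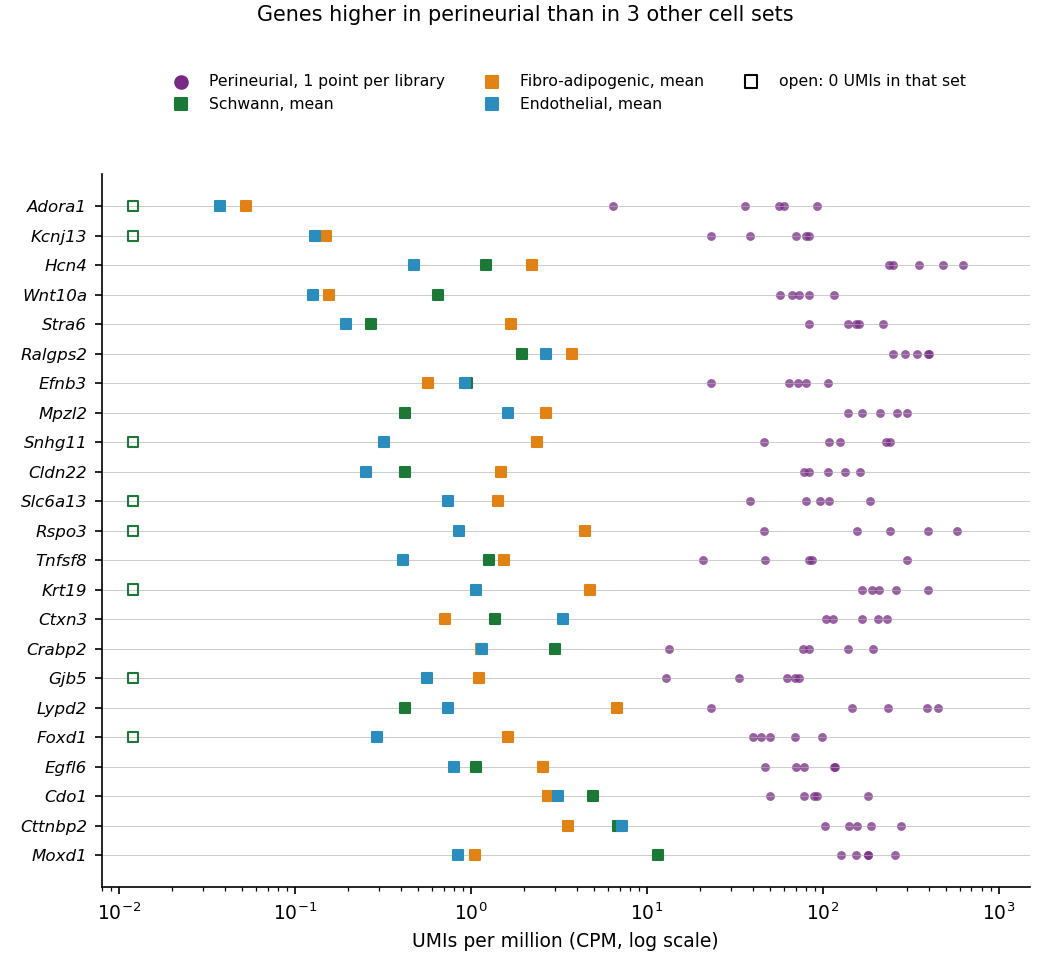
CPM (x axis, log scale) of 23 of the 24 genes (rows), with 1 purple point per library for perineurial barcodes and squares for the mean of the Schwann, fibro-adipogenic and endothelial sets; an open square marks 0 UMIs in that set. The perineurial points lie to the right of the squares, as the choice of genes requires, and 8 genes have an open Schwann square.

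Some hedgehog pathway genes were higher than in all 3 sets. Ptch1, the receptor and a direct target of the pathway (ENSMUSG00000021466, chromosome 13, 63508328 to 63573598), reached 277 and 462 CPM in the frail libraries, against 209, 192 and 524 CPM in the controls. Its mean of 333 ± 151 CPM compares with 70.1 CPM in Schwann, 21.7 in fibro-adipogenic and 38.6 in endothelial cells, and its log2 difference was at least 2.19 (edgeR adjusted p at most 5.62e-09). Gli1, the pathway's target transcription factor, stood at 80.9 ± 21.0 CPM against 1.94, 8.02 and 1.43 CPM. Dhh, the ligand, stood at 19.7 ± 14.7 CPM against 85.1 CPM in Schwann, 0.481 in fibro-adipogenic and 10.0 in endothelial cells, and at 1.90 CPM in the wider set, which leaves out Schwann-rich barcodes. It was lower than in Schwann cells and higher than in fibro-adipogenic cells. Hhip, a decoy receptor and pathway target, had 1 UMI in the members and was lower than in fibro-adipogenic cells, where it stood at 8.56 CPM (edgeR adjusted p = 0.0314).

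Of 12 hedgehog genes tested, 3 were higher than in all 3 sets (2.32% of all genes were), Ptch1 and Gli1 among them. Taken 1 set at a time, 6 of 12 were higher against Schwann cells, where 8.73% of all genes were, 4 against fibro-adipogenic cells (7.5%) and 9 against endothelial cells (14.1%). Lower than in Schwann cells was 1 (9.6% of all genes), lower than in fibro-adipogenic cells 4 (14.7%) and lower than in endothelial cells 0 (21.8%). The median log2 difference of the 12 was 1.26, 0.40 and 2.20, against medians of -0.14, -0.26 and -0.23 over all genes.

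Of 38 Wnt genes tested, 7 were higher than in all 3 sets, where 2.32% of all genes were: the ligands Wnt6 and Wnt10a, the receptors Fzd2 and Fzd7, the amplifier Rspo3, the feedback target Axin2 and the secreted modulator Dkk3. Fzd2 stood at 511, 402, 907, 282 and 405 CPM, against 11.9 CPM in Schwann, 49.6 in fibro-adipogenic and 4.71 in endothelial cells. Wnt6 stood at 234, 288, 372, 147 and 192 CPM, against 36.1, 1.43 and 0.528 CPM. Both genes were above all 3 sets in every library, and the rule gene Sfrp5 belongs to the same pathway. Against fibro-adipogenic cells alone, 10 of the 38 were higher and 8 lower, with a median log2 difference of -0.10.

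Of 22 tight and adherens junction genes tested, 2 were higher than in all 3 sets, where 2.32% of all genes were. They were Cgnl1, a cingulin-like junction scaffold, and Cdh11, a mesenchymal cadherin. Against endothelial cells alone 4 of the 22 were higher and 9 lower (14.1% and 21.8% of all genes). The median log2 difference there was -0.44. The counts were 6 higher and 2 lower against Schwann cells, and 9 and 1 against fibro-adipogenic cells. Cgnl1 stood at 157, 141, 209, 154 and 260 CPM, against 6.12, 36.3 and 37.0 CPM. Tjp1, called lower than in endothelial cells with TMM factors and not without them, stood at 307 ± 75.3 CPM beside 308 CPM there. Ocln, the junction protein occludin, was detected in 25 of the 143 barcodes at 32.6 ± 29.5 CPM, with 0.724 CPM in endothelial cells, but was below the count filter and was not tested.

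Of 24 transporters tested outside the rule, 4 were higher than in all 3 sets, where 2.32% of all genes were. They were Slc6a13, Slc12a2, Slc16a1 and Slco1a4, while Slc2a3 was lower than in all 3 with TMM factors (2.12% of all genes). Against endothelial cells alone 7 of the 24 were higher and 8 lower (14.1% and 21.8% of all genes). The median log2 difference there was -0.24. The counts were 9 and 2 against Schwann cells and 7 and 4 against fibro-adipogenic cells. Slc12a2, the sodium-potassium-chloride cotransporter, stood at 274 ± 92.5 CPM against 92.0, 20.5 and 47.3 CPM. Slc16a1, the lactate and pyruvate carrier MCT1, stood at 96.7 ± 44.1 CPM against 37.8, 21.7 and 15.8 CPM, and at 202 CPM in the wider set. Abcb1a, the drug efflux pump of the blood-nerve barrier, stood at 240, 676, 232, 371 and 93.5 CPM. Its log2 difference from endothelial cells, at 0.34, did not pass (edgeR adjusted p = 0.292). Of 15 glycolysis genes, Tpi1 alone was higher than in all 3, where 2.32% of all genes were. Tpi1 stood at 291 ± 38.5 CPM against 190, 123 and 131 CPM.

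Of 25 basement membrane genes tested, 2 were higher than in all 3 sets, where 2.32% of all genes were. They were Lamb2, a laminin chain, at 424 ± 81.0 CPM, and Col4a4 at 95.2 ± 27.1 CPM. Sparc was lower than in all 3 with TMM factors (2.12% of all genes). Against fibro-adipogenic cells alone 4 of the 25 were higher and 12 lower (7.5% and 14.7% of all genes). The counts were 9 and 2 against Schwann cells and 11 and 8 against endothelial cells. Of 19 integrin and adhesion genes, 2 were higher than in all 3, and Itgb1 was lower than in all 3 with TMM factors. The 2 were Itga7, a laminin receptor, at 131 ± 46.0 CPM, and Plec, which ties Itgb4 to intermediate filaments, at 309 ± 65.0 CPM. Of the 19, 9 were lower than in Schwann cells (9.6% of all genes) and 10 lower than in endothelial cells (21.8%). Higher were 3 and 5. Against fibro-adipogenic cells 9 were higher and 5 lower. Of 16 interstitial matrix genes, 12 were lower than in fibro-adipogenic cells (14.7% of all genes) and 12 higher than in endothelial cells (14.1%). Of these 16, 0 were higher than in all 3. From a list of endoneurial fibroblast genes, the elastic fibre gene Fbln5 was lower than in all 3 sets in all 3 fits, at 54.8 ± 41.1 CPM against 195, 241 and 120 CPM.

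Of 10 arachnoid barrier genes tested, 5 were higher than in all 3 sets: Crabp2, Bnc2, Foxc1, Foxc2 and Foxd1. Over all genes 2.32% were, and this share stands beside each such count of this paragraph. Bnc2, a zinc-finger factor of fibroblasts, stood at 187 ± 69.8 CPM against 2.05, 34.3 and 1.97 CPM, and Foxc1, a factor of meningeal development, at 90.1 ± 24.8 CPM against 7.31, 16.8 and 41.5 CPM. Of 25 TGF-beta and BMP genes, Chrdl1, a BMP antagonist, was higher than in all 3 sets, at 218 ± 23.1 CPM, and of 37 neural signal genes Efnb3 and Ntrk3, the neurotrophin-3 receptor, were. Of 8 connexin and pannexin genes, Gjb2 was higher than in all 3, at 107, 422, 0, 243 and 62.3 CPM, and was seen in 22 barcodes. Gja4 was lower than in all 3 with TMM factors (2.12% of all genes).

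Of 17 interferon and MHC genes tested, 3 were lower than in all 3 sets in all 3 fits, where 2.12% of all genes were lower with TMM factors. They were B2m, H2-D1 and H2-K1, which form MHC class I. The class II genes Cd74, H2-Aa, H2-Ab1 and H2-Eb1 were not called lower than in all 3. H2-D1 stood at 484, 348, 395, 390 and 348 CPM against 905, 765 and 2137 CPM, with a log2 difference of -1.27 or less (edgeR adjusted p at most 3.34e-08). H2-D1 and H2-K1 are similar in sequence, and how shared reads were split is not given in the sources used here. Irf1, an interferon-response factor, was higher than in all 3 sets on the fitted scale, at 975 ± 380 CPM against 566, 470 and 539 CPM.

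Immediate early genes went both ways. Fosl2 at 444 ± 111 CPM, Nr4a1 at 1108 ± 155 CPM and Nr4a3 at 86.3 ± 48.2 CPM were higher than in all 3 sets, 3 of 23. Over all genes, 2.32% were higher and 2.12% lower with TMM factors. Klf4, at 718 ± 208 CPM against 1298, 1607 and 1718 CPM, was lower in all 3 fits. Jun, Jund, Klf2 and Dusp1 were lower with TMM factors and not without them. Genes of this list are known to respond to tissue dissociation, and the part of handling in their levels was not tested.

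Of the genes tied to GDF15 and its relatives, 1 of 5 tested was higher than in all 3 sets, where 2.32% of all genes were. Gfra1, a co-receptor of the GDNF family (ENSMUSG00000025089, chromosome 19, 58235604 to 58455909), stood at 200, 214, 256, 275 and 192 CPM, a narrow range, against 94.9 CPM in Schwann, 80.0 in fibro-adipogenic and 2.29 in endothelial cells. The smallest log2 difference was 1.03 (edgeR adjusted p = 0.0232). Ret, the kinase that signals with Gfra1, had 0 UMIs in the members, which allows up to 3.57 CPM. Gfral, the GDF15 receptor, had 0 UMIs in all 4 sets, and Gdf15 was detected in 2 of the 143 barcodes.

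Among themselves the perineurial barcodes differed most in housekeeping and fibroblast genes. The 15 genes of largest variance beyond counting noise within libraries included Rn18s-rs5, Malat1, Igfbp6, Fth1, Dcn, S100a6, Mt1, Gsn, Fos and Egr1. Igfbp6, an IGF-binding protein, had a median of 37 UMIs and a maximum of 238, and Dcn a median of 54 and a maximum of 529. Without the 23 Schwann-rich barcodes, Gatm was no longer in this group.

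The share of perineurial barcodes was compared between frail and control mice, which in dissociated tissue cannot be told apart from differences in how well the sheath was released. The share was 0.588% and 0.238% of retained barcodes in the frail libraries and 0.0809%, 0.304% and 0.215% in the controls. The means were 0.413% ± 0.248 (SD, n = 2) and 0.200% ± 0.113 (SD, n = 3), a ratio of 2.06, and the groups overlapped, with frail 2 below control 2 (exact two-sided permutation test, p = 0.3, smallest possible p 0.1). The exact Clopper-Pearson 95% interval was 0.443% to 0.765% for frail 1, and 0.0325% to 0.167% for control 1. Without frail 1 the ratio was 1.19.

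The ratio depended on how the barcodes were chosen. With each barcode thinned to 2000 UMIs it was 2.47 and the groups did not overlap (exact permutation p = 0.1), with 57, 30, 14, 20 and 20 barcodes where 50, 25, 6, 29 and 25 of the same depth had met the rule unthinned. The overlap was lost as control 2 went from 0.328% to 0.226% and frail 2 from 0.259% to 0.311%. In the wider set the shares were 0.898% and 0.504% against 0.277%, 0.365% and 0.265%, a ratio of 2.32 with no overlap. A rule without Sfrp5 instead required at least 3 of the 5 sheath markers. Under it the ratio was 0.905, and control 3 alone gave 170 barcodes. When Krt5 and Krt15, keratins of skin, were also excluded, 55 of these remained (ratio 1.78). Of perineurial and Schwann barcodes together, perineurial ones made up 24.9% ± 1.84 in frail and 21.8% ± 4.00 in control mice, a ratio of 1.14 (exact permutation p = 0.4).

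**Figure D4:**
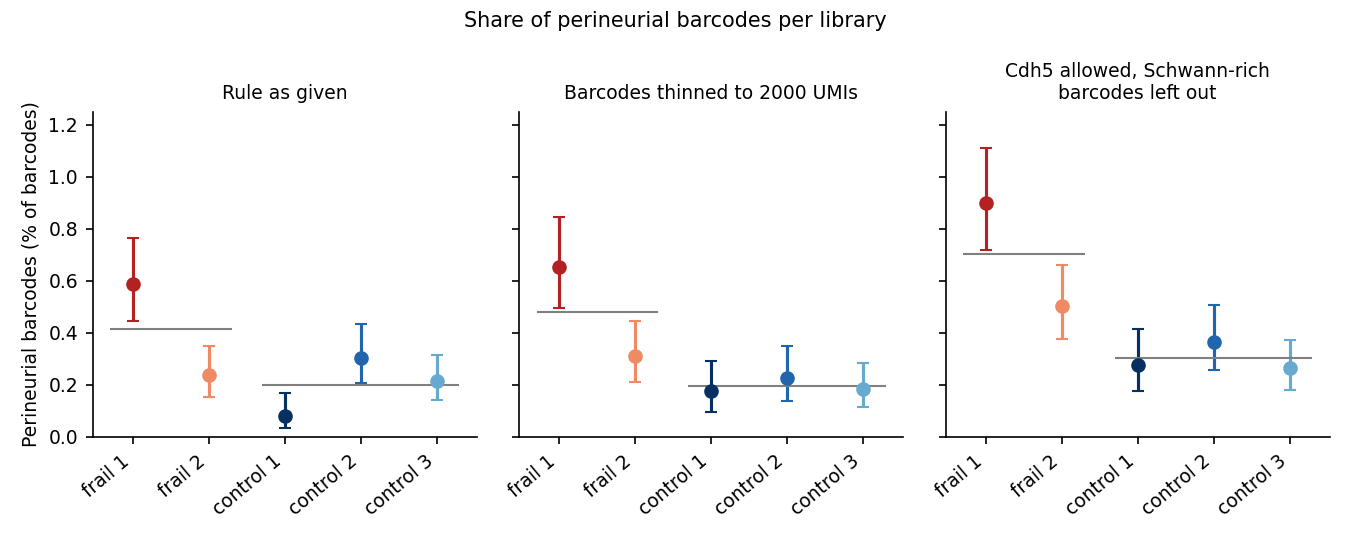
Percent of retained barcodes (y axis) that are perineurial in each library under the rule, after thinning to 2000 UMIs, and in the wider set with Cdh5 allowed and Schwann-rich barcodes left out. Points are libraries, bars exact 95% binomial intervals and grey lines group means. Frail 2 lies below control 2 under the rule and above all 3 controls in the other 2 panels.

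Within perineurial cells, no gene passed the threshold between frail and control mice. With edgeR's quasi-likelihood test, 0 of 3360 genes (0%) had an adjusted p under 0.05, and the smallest was 0.0772. At an unadjusted p under 0.05 there were 111 genes (3.3%), 65 higher and 46 lower in frail mice. Both frail libraries lay above every control in 6.93% of genes and below every control in 10%, or 17% in all. DESeq2 called 3 genes, the myofibre genes Tnnc2, Ckm and Tnni2, all lower in frail mice. Without frail 1, frail 2 or control 1, edgeR called 2, 7 and 4 genes, and without control 2 or control 3 it called 0. The gene with the smallest p was Id1. The 12 genes below are those of smallest p among genes whose groups did not overlap and whose average log2 CPM was at least 5. Genes of the rule and clone, predicted or mitochondrial names were left out of this choice.

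Id1, a BMP-responsive inhibitor of transcription factors (ENSMUSG00000042745, chromosome 2, 152736251 to 152737410), reached 280 and 274 CPM in the frail libraries, against 69.7, 51.2 and 67.5 CPM in the controls. The frail libraries lay together and far above the controls, with a log2 difference of 2.21 (SE 0.37, edgeR adjusted p = 0.0772). In the wider set the groups overlapped, at 230 and 309 CPM against 273, 181 and 82.5 CPM, and the log2 difference was 0.63. In fibro-adipogenic cells it was 0.22. Of 12 TGF-beta and BMP genes tested, Id1, Id3 and Tgfbr1 lay above every control in both frail libraries and 0 lay below, where 6.93% of all genes lay above and 10% below.

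Ptprd, a receptor phosphatase of neuronal adhesion, reached 114 and 147 CPM in the frail libraries, against 0, 32.0 and 5.19 CPM in the controls, with no overlap. In the wider set it stood at 64.8 and 93.3 CPM against 64.1, 43.1 and 24.1 CPM, where frail 1 and control 1 nearly met. Slc16a9, a monocarboxylate carrier family member, stood at 110 and 167 CPM against 46.5, 64.0 and 26.0 CPM and overlapped in the wider set.

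Igfbp5, which binds insulin-like growth factors, reached 1235 and 797 CPM in the frail libraries, against 3487, 2687 and 2025 CPM in the controls. All 3 controls were above both frail libraries, with a log2 difference of -1.33 (SE 0.32, edgeR adjusted p = 0.478). It was -0.93 in the wider set, again without overlap, and -1.30 in fibro-adipogenic cells. Myoc, the secreted protein myocilin, stood at 361 and 482 CPM against 1116, 1619 and 800 CPM, a log2 difference of -1.44 (SE 0.33, edgeR adjusted p = 0.478). It was -1.18 in the wider set and -0.18 in fibro-adipogenic cells, and 0.05 under the rule without Sfrp5 and with at least 3 sheath markers.

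Ecm1, an extracellular matrix protein, stood at 90.2 and 107 CPM against 256, 205 and 275 CPM, and C4b, a complement component, at 26.7 and 13.4 CPM against 69.7, 76.8 and 109 CPM. Both were without overlap in the wider set too. Plekhb1 stood at 33.4 and 73.6 CPM against 232, 115 and 140 CPM. In the wider set, which leaves out Schwann-rich barcodes, it was at 3.44 to 6.36 CPM in the 5 libraries and below the count filter. Hmcn2, a hemicentin of basement membranes, stood at 56.8 and 40.2 CPM against 69.7, 243 and 119 CPM, with overlap in the wider set. An exon of Myoc overlaps a gene on the opposite strand, as does one of Tnnc2.

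The remaining 3 of the 12 genes encode fast-fibre proteins. Ckm, the muscle creatine kinase, reached 6.68 and 13.4 CPM in the frail libraries, against 69.7, 218 and 649 CPM in the controls, and Tnnc2 and Tnni2 were also highest in control 3 and lowest in the frail libraries. The list of 11 myofibre genes summed to 96.8 and 100 CPM in frail and to 395, 1324 and 5203 CPM in control mice, with 2 to 6 genes at 0 in a library. The same list summed to 42.7 and 139 CPM against 831, 2275 and 1425 CPM in fibro-adipogenic cells, and to 101 and 299 CPM against 2075, 3559 and 1183 CPM in endothelial cells. In all 3 sets both frail libraries were below every control, and the part of myofibre RNA in the perineurial values was not tested.

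**Figure D5:**
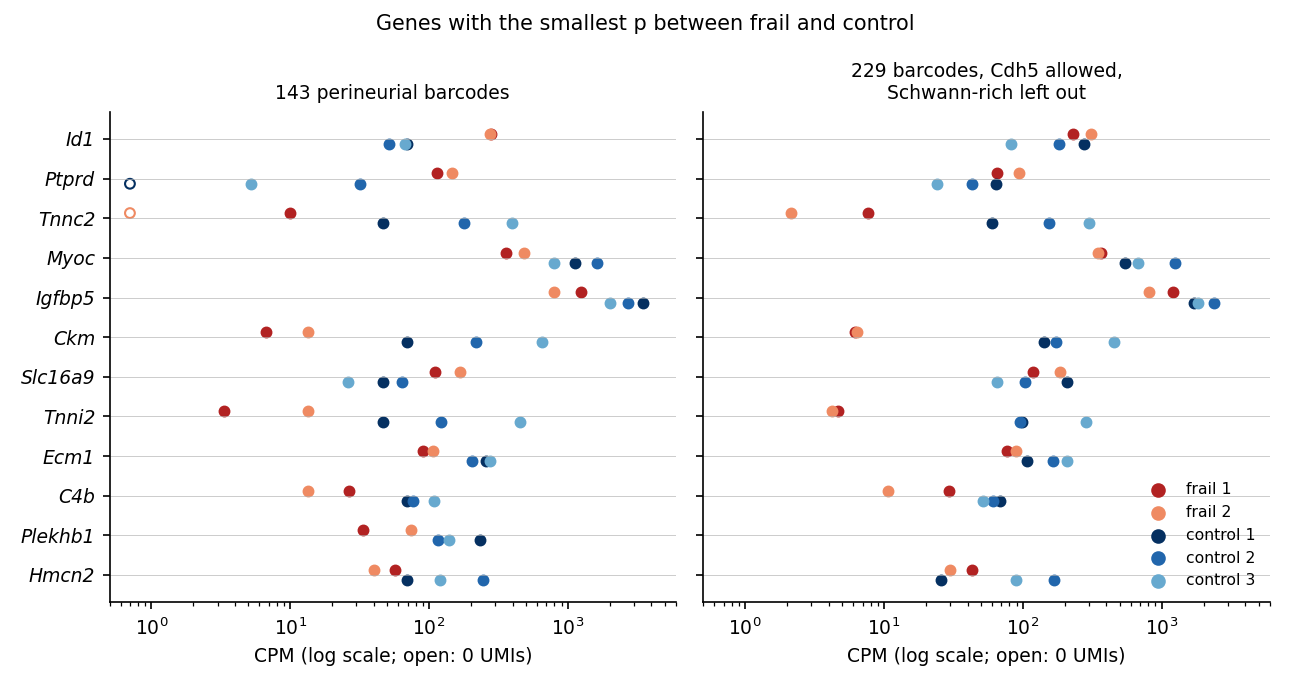
CPM (x axis, log scale) of the 12 named genes in frail (red and orange) and control (blue shades) libraries. They have the smallest p among named genes without overlap and with an average log2 CPM of at least 5. Values are from the 143 perineurial barcodes (left) and the 229 barcodes of the wider set (right), and open points mark 0 UMIs. The colours separate on the left because the genes were chosen for it, and those of Id1, Slc16a9 and Hmcn2 mix on the right; Plekhb1 was not plotted there.

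Counts of list genes outside the control range stand beside 6.93% of all genes above and 10% below every control. Of 11 perineurial genes tested, Ntng1 and Mpzl2 lay above and Stxbp6 below every control, and the median log2 difference was 0.03, against -0.00 over all genes tested. Of 12 transporters, 3 lay above, Slc16a1 and Abcg2 among them, and 0 below. Slc16a1 stood at 117 and 161 CPM against 69.7, 89.6 and 46.7 CPM, and in the wider set at 298 and 182 CPM against 222, 160 and 148 CPM, where the groups overlapped. Of 16 interstitial matrix genes, Postn lay above and Col3a1 and Bgn below, with a median of -0.41, and of 16 basement membrane genes 0 lay on either side. Of 5 hedgehog genes 0 lay outside the controls, and of 11 Wnt genes Lrp6 did.

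Of the GDF15 list, Gfra2, the neurturin co-receptor, reached 36.7 and 40.2 CPM in the frail libraries, against 139, 83.2 and 62.3 CPM in the controls, with a log2 difference of -1.06 that did not pass (edgeR unadjusted p = 0.0563). Gfra1 overlapped between the groups, with a log2 difference of -0.15 (SE 0.35). Of 11 inflammation and senescence genes, Il6 and Nfkbia lay below every control, and Il6 stood at 53.4 and 0 CPM against 163, 83.2 and 88.3 CPM.

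The frail effect in perineurial cells was also set against that in fibro-adipogenic cells of the same libraries. With limma on the difference of log2 CPM within each library, 0 of 3350 genes (0%) passed, with a smallest adjusted p of 0.274, and 88 genes (2.63%) had an unadjusted p under 0.05. Snhg11, Gm12840, Id1, Itgb7 and Slc16a1 had the smallest p. For Snhg11, at 240 and 228 CPM in frail and 46.5, 109 and 125 CPM in control perineurial sums, the difference between the effects was 2.69 on the log2 scale (SE 0.44, limma adjusted p = 0.274), and for Id1 it was 1.77 (SE 0.36, limma adjusted p = 0.818).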

How the data were processed

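The authors deposited UMI counts per gene and barcode for each of the 5 libraries. Per the submitters' processing notes, bcl2fastq 5.01, Cell Ranger 7.0.0, Seurat 4.1.2 and GRCm38 were used; the gene annotation is not given in the sources used here. Barcodes under 200 genes or over 10% mitochondrial UMIs were left out. Counts were summed per library over gated barcodes, so that the library is the replicate. The members and gene lists were chosen with earlier results of these data known. edgeR 4.0.16 (quasi-likelihood, TMM, R 4.3.3) tested frail against control mice, and perineurial against other sums with the library as a block. limma 3.58.1 tested the difference of effects on log2 CPM (prior count 2), and DESeq2 1.42.0 was an alternative. p-values were adjusted by Benjamini-Hochberg over all genes tested. Nothing says how the libraries were batched. The genes named are the 24 of largest smallest fold, the 12 frail and the 5 difference genes of smallest p, as described with each result, besides listed genes. Gene positions come from GENCODE vM21. Scripts were tested on simulated data. A few genes included in the counts are not reported here by name.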

Additional observations from a re-analysis of the deposited data

How the results depend on the processing

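The share ratio of frail to control mice, 2.06, became 0.905 under the rule without Sfrp5, which required at least 3 sheath markers. The ratio ranged from 1.19 (without frail 1) to 2.94 (without frail 2) when 1 library was left out. The count of genes passing between frail and control mice, 0, was 3 with DESeq2, 14 without the low-count filter and 0 to 7 with 1 library left out. The log2 change of Myoc was 0.051 under the rule without Sfrp5. Genes lower in perineurial cells than in all 3 sets, 309, numbered 137 with DESeq2, 93 without TMM factors and 148 to 259 with 1 library left out; they fell by over 1.5 times without frail 1 (175), frail 2 (195) or control 3 (148). Genes higher than in all 3, 338, numbered 233 to 330 with 1 library left out and 684 in the wider set. The difference of effects passed for 0 genes in each alternative run. The causes of these shifts were not tested. The fit without TMM factors and the wider set were chosen after seeing the data.

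Replicate numbers do not mark shared animals, and the deviations of same-numbered libraries correlated at 0.01 and 0.11. With 2 frail libraries, their deviations mirror each other. Frail 1 with control 2 (-0.11) and frail 2 with control 1 (-0.01) thus had the opposite sign by construction. These correlations cannot decide whether libraries were paired. With the replicate block the share ratio was 2.38, 12 genes passed between frail and control mice and 0 passed for the difference of effects. Without the library block, 302 genes were higher and 209 lower than in all 3 sets. With 7 perineurial barcodes in control 1, low genes rest on few UMIs there.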
